A study of Homo sapiens with 24 samples.

Results

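The 4 genes of the STEAP family (STEAP1, STEAP2, STEAP3 and STEAP4) and 4 other surface molecules studied as targets in prostate cancer (FOLH1, PSCA, CD276 and TRPM8) were followed through METTL3 depletion and androgen treatment. These 8 genes were taken by symbol from the 60675 genes of the count files. RNA-seq was available for 24 libraries in 8 groups of 3. LNCaP:C4-2, a castration-resistant subline of LNCaP, and 22Rv1, a line derived from a prostate cancer xenograft, were each transfected with a control siRNA (siSCR) or with siRNA against METTL3 (siMETTL3). Each transfected line then received ethanol vehicle or 1 nM R1881, a synthetic androgen, for 72 h, which started with a repeat transfection 48 h after the first. Neither siSCR nor vehicle is an untouched control, since all 24 libraries came from transfected cells kept in charcoal-stripped serum. The siMETTL3 reagent is a pool directed at a single gene, so the depletion rests on 1 pool in each line. The labels do not say whether the 3 libraries of a group came from separate cultures, and p-values therefore measure the spread between these libraries, which may be technical.

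STEAP proteins are membrane metalloreductases: STEAP2, STEAP3 and STEAP4 pass electrons from NADPH to iron and copper, whereas STEAP1 lacks the NADPH-binding domain. FOLH1 encodes prostate-specific membrane antigen (PSMA), a glutamate carboxypeptidase used for imaging and radioligand therapy. PSCA is a glycolipid-anchored antigen, CD276 (B7-H3) is an immune checkpoint ligand, and TRPM8 is a calcium-permeable channel opened by cold and menthol. METTL3 is the catalytic subunit of the complex that writes N6-methyladenosine on mRNA. Androgen response elements in DNA are paired half-sites, and forkhead factors bind near them at many enhancers.

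STEAP1, STEAP2 and STEAP4 lie on chromosome 7 in the annotation of the files (Ensembl 83). STEAP1 (GRCh38 chr7:90154375-90164829, plus strand) and STEAP2 (chr7:90167590-90238137, plus strand) start 13.2 kb apart, and STEAP4 (chr7:88270892-88306891, minus strand) starts at -1847.5 kb relative to STEAP1. RefSeq promoters of 300 bases (around the annotated first base, build GRCh38.p14) were matched for 6 of the 8 genes (all but FOLH1 and PSCA), in 13 entries. The RefSeq starts of STEAP2 lie inside the longer gene model of the files. Promoters are shown for the matched genes that were called higher with R1881 in at least 1 line (for TRPM8 its first start), from 5′ to 3′ on the gene's strand. A single capital marks the annotated first base and a run of capitals marks a motif match.
STEAP1, chr7:90154219-90154518, plus strand: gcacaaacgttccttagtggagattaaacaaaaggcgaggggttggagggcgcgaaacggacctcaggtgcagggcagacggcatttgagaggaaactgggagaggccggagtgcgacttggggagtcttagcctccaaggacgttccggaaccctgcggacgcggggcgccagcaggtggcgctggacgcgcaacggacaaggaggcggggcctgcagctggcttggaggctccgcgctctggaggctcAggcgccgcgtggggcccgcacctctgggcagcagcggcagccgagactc
STEAP2, first start, chr7:90211490-90211789, plus strand: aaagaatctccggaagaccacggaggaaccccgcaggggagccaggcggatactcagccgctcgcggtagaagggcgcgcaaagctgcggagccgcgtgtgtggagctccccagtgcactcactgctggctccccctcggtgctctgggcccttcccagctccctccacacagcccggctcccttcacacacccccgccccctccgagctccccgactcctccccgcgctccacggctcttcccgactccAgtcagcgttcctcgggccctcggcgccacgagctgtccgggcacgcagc
STEAP2, other start, chr7:90213570-90213869, plus strand: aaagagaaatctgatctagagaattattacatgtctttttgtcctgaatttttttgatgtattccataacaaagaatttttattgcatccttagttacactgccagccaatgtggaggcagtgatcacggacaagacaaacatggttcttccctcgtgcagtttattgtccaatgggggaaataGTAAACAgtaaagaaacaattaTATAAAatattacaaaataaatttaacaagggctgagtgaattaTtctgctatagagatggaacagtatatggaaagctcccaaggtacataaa
STEAP4, chr7:88306845-88307144, minus strand: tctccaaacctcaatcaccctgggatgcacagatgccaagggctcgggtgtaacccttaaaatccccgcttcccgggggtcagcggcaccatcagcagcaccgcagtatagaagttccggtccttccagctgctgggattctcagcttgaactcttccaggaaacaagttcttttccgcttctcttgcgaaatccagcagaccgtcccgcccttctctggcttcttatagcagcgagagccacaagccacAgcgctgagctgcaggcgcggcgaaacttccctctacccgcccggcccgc
TRPM8, chr2:233917123-233917422, plus strand: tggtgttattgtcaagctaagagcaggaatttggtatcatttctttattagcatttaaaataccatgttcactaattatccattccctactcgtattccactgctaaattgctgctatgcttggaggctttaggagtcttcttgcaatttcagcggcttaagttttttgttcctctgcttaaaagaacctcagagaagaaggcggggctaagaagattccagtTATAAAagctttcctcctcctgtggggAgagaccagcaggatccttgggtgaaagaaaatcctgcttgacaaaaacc

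STEAP3 (chr2:119223831-119265652, plus strand) and TRPM8 (chr2:233917398-234019522, plus strand) share chromosome 2. FOLH1 is on chromosome 11 (49146635 to 49208670, minus strand), PSCA on chromosome 8 (142670308 to 142682724, plus strand) and CD276 on chromosome 15 (73683966 to 73714518, plus strand).

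The motifs searched on both strands were the androgen response half-site AGAACA, the forkhead motif TGTTTAC and the TATA box TATAAA, none of which overlapped another. None of the 5 promoters shown held the half-site, which occurred in 14.8% of the 35116 RefSeq promoters of this length. Of the 13 entries, 1 held a half-site, at an internal start of TRPM8. A pair of half-sites separated by 3 bases was in none of the 13 and in 0.00285% of all promoters. The forkhead motif was found at 1 of the 13 entries, beginning 66 bases before the other start of STEAP2, against 3.42% of all promoters. TATAAA was found at 2 entries, the first TRPM8 start and the other STEAP2 start, against 11.5% of all promoters. The STEAP1 promoter and that of the first STEAP2 start were rich in CG dinucleotides, with 27 and 28 in 300 bases against a median of 14. The promoter of the first TRPM8 start held 3. A match or its absence describes these letters in this window only.

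Library totals over all genes ran from 15716224 to 21306019 counts. In LNCaP:C4-2, siMETTL3 vehicle replicate 1 and siSCR R1881 replicate 1 stood furthest apart within their groups: their counts differed from those of the other replicates by a chi-square per degree of freedom of 38.5 and 41.7 and of 30.5 and 30.8, against 4.11 and 3.05 between the other replicates. Smaller gaps were seen for 22Rv1 siMETTL3 vehicle replicate 1 (17.6 and 16.2, against 3.78) and 22Rv1 siSCR vehicle replicate 3 (16.7 and 11.8, against 3.5). LNCaP:C4-2 siSCR vehicle replicate 3 had 10.3 and 10.7, against 3.35. METTL3 was lower with siMETTL3 in each of the 4 pairs of groups, with no overlap between groups. In LNCaP:C4-2 it was 17.7 ± 1.26 CPM against 27 ± 2.07 with vehicle (SD, n = 3) and 21.1 ± 0.371 against 31.2 ± 2.64 with R1881. CPM are depth-scaled counts, with TMM scaling within a line. In 22Rv1 it was 26.8 ± 0.621 CPM against 49.7 ± 0.726 with vehicle and 23.8 ± 2.07 against 54 ± 1.75 with R1881. The exact two-sided permutation test gave p = 0.1 in each pair, the smallest p that 3 against 3 libraries can give. Among the luminal markers, KRT8 lay between 311 and 585 CPM and KRT18 between 141 and 293 CPM in the group means of both lines, and basal markers (KRT5, KRT14, TP63) summed to at most 0.609 CPM in any group. The endothelial marker VWF accounted for 2.65 to 7.49 CPM in LNCaP:C4-2 while PECAM1 was at or near 0, and the neuroendocrine marker SYP held most of a summed 84.5 to 117 CPM in 22Rv1. Of stroma only COL1A1 passed 1 CPM, within a summed 16.3 to 61.6 CPM, and of leukocytes only PTPRC, in LNCaP:C4-2 (at most 1.43 CPM summed). Their part in the results was not tested. In bulk RNA, fewer cells expressing a gene and less RNA per cell cannot be told apart.

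In LNCaP:C4-2 with vehicle and siSCR, FOLH1 was the most abundant of the 8 per length, and STEAP4 had no count. Levels per length are given as RPKM (CPM per kb of exon, n = 3). FOLH1 stood at 343 ± 9.05 RPKM, above STEAP2 at 80.1 ± 3.44 and STEAP1 at 74.8 ± 6.01, whose means differed by less than their spread, although STEAP2 was the higher within each of the 3 libraries. CD276 followed at 27.1 ± 0.933 RPKM, then STEAP3 at 6.38 ± 0.817 and PSCA at 2.40 ± 0.104. TRPM8 was at 0.0507 ± 0.0137 RPKM. With R1881 the order in LNCaP:C4-2 became FOLH1 at 236 ± 7.47, STEAP1 at 140 ± 12.5, STEAP2 at 112 ± 15.8 and CD276 at 20.8 ± 2.09 RPKM, with STEAP1 above STEAP2 within each library. PSCA at 6.92 ± 0.421 RPKM then lay above STEAP3 at 4.03 ± 0.694, TRPM8 at 2.04 ± 0.433 and STEAP4 at 0.232 ± 0.0672. In 22Rv1 with vehicle FOLH1 also led, at 30.1 ± 2.85 RPKM, followed by CD276 at 11.4 ± 1.04 and STEAP1 at 4.10 ± 0.612. STEAP2 at 2.74 ± 0.390 and STEAP3 at 2.32 ± 0.0784 RPKM were neighbours within their spread there. With R1881 in 22Rv1 STEAP1 was highest, at 19.4 ± 2.06 RPKM, ahead of CD276 at 11.8 ± 0.284, STEAP2 at 8.39 ± 0.480 and FOLH1 at 4.16 ± 0.365.

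**Figure D1:**
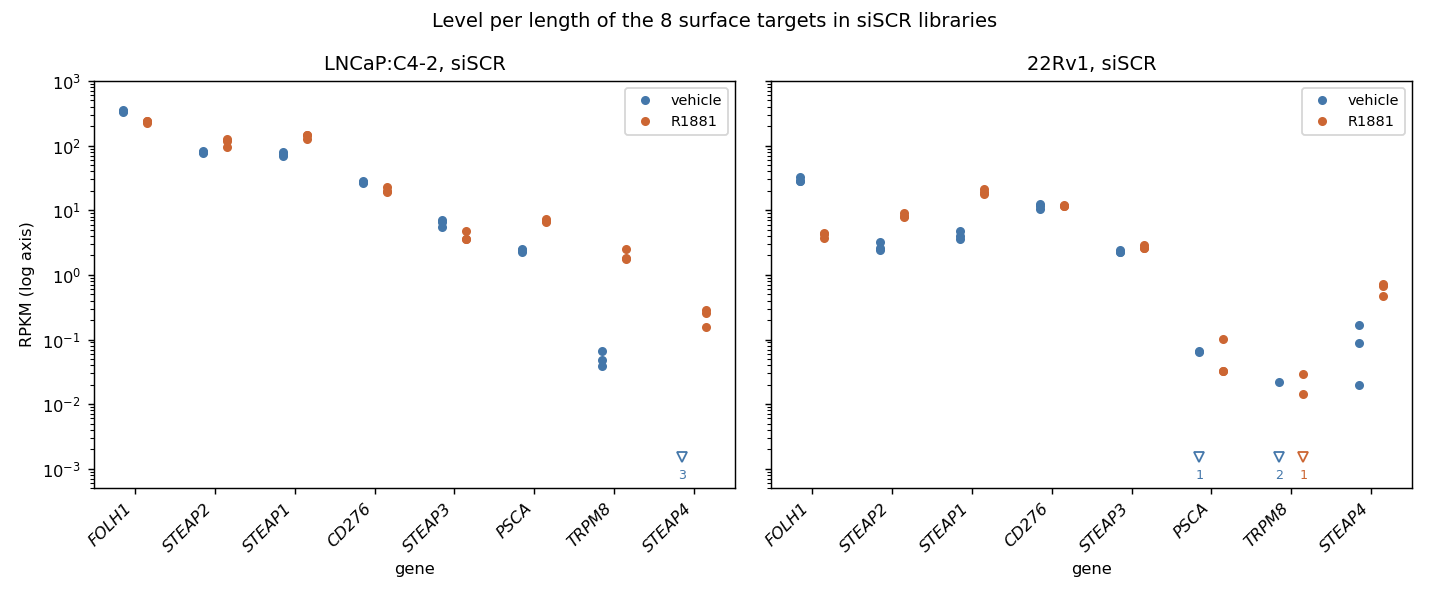
Level per length (RPKM, log axis) of the 8 genes in the siSCR libraries of LNCaP:C4-2 (left) and 22Rv1 (right), each point 1 library, blue for vehicle and orange for R1881. Open triangles with a number give libraries without a count. FOLH1 led in LNCaP:C4-2 under both treatments and in 22Rv1 with vehicle, where with R1881 it stood at 4.16 RPKM, below STEAP1 at 19.4 RPKM. The scaling was done within each line.

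The first comparison asked which of these genes answered to androgen. In LNCaP:C4-2 with siSCR, STEAP1, STEAP4, PSCA and TRPM8 rose and STEAP3 fell. A gene was called at an adjusted p under 0.05 and a fold of at least 1.5. All 8 genes were tested and 5 were called, where 15.1% of the 16435 genes tested were called. In this line STEAP4 and TRPM8 passed the count filter only through R1881 libraries, where they were high. Their calls, with either siRNA, are therefore not independent of the filter. Requiring at least 10 counts in every library left 3 called with siSCR (14.2% of genes) and 2 with siMETTL3 (9.78%). In 22Rv1 with siSCR, STEAP1, STEAP2 and STEAP4 rose and FOLH1 fell. PSCA and TRPM8 were too low there to be tested, so 4 of 6 were called, against 13.8% of 17865 genes. With siMETTL3, 4 of 8 were called in LNCaP:C4-2 (STEAP4, PSCA and TRPM8 higher, FOLH1 lower), against 10.6% of genes. In 22Rv1 with siMETTL3 the called genes were again STEAP1, STEAP2, STEAP4 and FOLH1, 4 of 6, against 13.5% of genes.

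STEAP1, the STEAP family member targeted by antibody-based therapies, rose in both lines. Its CPM in LNCaP:C4-2 with siSCR was 121, 112 and 131 with vehicle and 204, 240 and 238 with R1881. In 22Rv1 with siSCR it was 5.75, 6.52 and 7.72 CPM with vehicle and 28.6, 30.7 and 35.1 with R1881. All R1881 libraries lay above all vehicle libraries of their line. The log2 fold change was 0.90 ± 0.125 (SE, edgeR adjusted p = 7.47e-05) in LNCaP:C4-2 and 2.24 ± 0.125 (edgeR adjusted p = 5.78e-12) in 22Rv1. With siMETTL3 in LNCaP:C4-2, STEAP1 was at 145, 102 and 107 CPM with vehicle and 186, 167 and 167 with R1881. The groups did not overlap, but the log2 fold change of 0.56 ± 0.125 (edgeR adjusted p = 0.0056) stayed under the fold threshold. Without siMETTL3 vehicle replicate 1, the highest of that group, it was 0.72 (edgeR adjusted p = 7.68e-05) and passed. Over all libraries left out in turn it ran from 0.46 to 0.72, at edgeR adjusted p of 7.68e-05 to 0.0421. With siMETTL3 in 22Rv1 the log2 fold change was 1.90 ± 0.126 (edgeR adjusted p = 1.15e-10).

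STEAP2, a metalloreductase of the Golgi and endocytic vesicles as well as the cell surface, rose in 22Rv1. Its CPM there with siSCR was 21.2, 22.6 and 27.7 with vehicle and 72, 69.6 and 77.7 with R1881. The groups did not overlap, with a log2 fold change of 1.62 ± 0.104 (SE, edgeR adjusted p = 6.34e-11). In LNCaP:C4-2 with siSCR, STEAP2 was already at 690, 674 and 732 CPM with vehicle, and at 824, 1090 and 1010 with R1881. All 3 R1881 libraries were higher, but the log2 fold change of 0.48 ± 0.152 (edgeR adjusted p = 0.0298) was under the fold threshold. Without siSCR R1881 replicate 1, the lowest of that group, it was 0.60 (edgeR adjusted p = 0.0115) and passed. Over all libraries left out in turn it ran from 0.40 to 0.60, at edgeR adjusted p of 0.0115 to 0.121. With siMETTL3 the STEAP2 libraries of LNCaP:C4-2 overlapped, at 957, 619 and 583 CPM with vehicle and 771, 831 and 802 with R1881. The log2 fold change was 0.15 (95% interval -0.17 to 0.48), or 0.41 without siMETTL3 vehicle replicate 1 (edgeR adjusted p = 0.0117). Over all libraries left out in turn it ran from 0.03 to 0.41, at edgeR adjusted p of 0.0117 to 0.931. In 22Rv1 with siMETTL3 the log2 fold change was 1.16 ± 0.105 (edgeR adjusted p = 1.59e-08). The ratio of STEAP2 to STEAP1 on the per-length scale was lower with R1881 in both lines: in siSCR libraries it ran from 1.04 to 1.12 with vehicle and from 0.754 to 0.847 with R1881 in LNCaP:C4-2. In 22Rv1 it ran from 0.647 to 0.689 with vehicle and from 0.413 to 0.469 with R1881.

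STEAP4, a metalloreductase of adipocytes and prostate epithelium also known as STAMP2, had the sparsest counts among the responders. It had, in LNCaP:C4-2 with siSCR, 0 counts in each of the 3 vehicle libraries and 32, 52 and 59 with R1881. Against a floor of 3 counts per library, it was at least 16.7-fold higher with R1881 (at least 4.06 on the log2 scale, edgeR adjusted p = 2.77e-06). The fitted fold of a group at 0 depends on the prior count and is not given. With siMETTL3 the vehicle libraries held 0, 1 and 0 counts and the R1881 libraries 19, 30 and 26, a ratio of 74.7 with an exact 95% counting interval of 13 to 2990 (edgeR adjusted p = 5.89e-05). Without siMETTL3 vehicle replicate 2, which held the single count, it was at least 8.1-fold higher against the floor, and without vehicle replicate 3 the ratio was 48.8. Such intervals cover counting error only. In 22Rv1 STEAP4 was detected without androgen, at 4, 33 and 17 counts with siSCR and vehicle, and rose to 133, 91 and 141. The groups did not overlap, although the vehicle libraries spread widely. The log2 fold change was 2.76 ± 0.337 (SE, edgeR adjusted p = 1.56e-06) and 3.54 without siSCR vehicle replicate 2. Over all libraries left out in turn it ran from 2.27 to 3.54. With siMETTL3 in 22Rv1 it rose from 25, 35 and 14 counts to 73, 101 and 100, a log2 fold change of 2.12 ± 0.328 (edgeR adjusted p = 3.11e-05).

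STEAP3, the ferrireductase of the endosomal transferrin cycle, moved the other way in LNCaP:C4-2. With siSCR its CPM was 30.1, 25 and 32.2 with vehicle and 22, 16.6 and 16.5 with R1881. No R1881 library reached the lowest vehicle library, and the log2 fold change was -0.66 ± 0.144 (SE, edgeR adjusted p = 0.00326). Without siSCR vehicle replicate 3 it was -0.58 (edgeR adjusted p = 0.0186), just under the fold threshold. With siMETTL3 in LNCaP:C4-2 the libraries overlapped, at 18.2, 19.3 and 23.7 CPM with vehicle and 19.8, 17.9 and 19.8 with R1881. In 22Rv1 with siSCR, STEAP3 was at 10.3, 11 and 10.5 CPM with vehicle and 11.9, 11.9 and 13.2 with R1881, a log2 fold change of 0.22 (95% interval -0.01 to 0.45, edgeR adjusted p = 0.131). With siMETTL3 in 22Rv1 it was 0.44 ± 0.109 (edgeR adjusted p = 0.00375), under the fold threshold.

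FOLH1 was lower with R1881 in every group pair. In 22Rv1 with siSCR its CPM was 110, 107 and 127 with vehicle and 14.3, 16.8 and 16.6 with R1881. The fall was 2.85 on the log2 scale, a log2 fold change of -2.85 ± 0.0979 (SE, edgeR adjusted p = 2e-15). With siMETTL3 in 22Rv1 it fell from 131, 128 and 136 CPM to 22.6, 18 and 20.5, a log2 fold change of -2.69 ± 0.0959 (edgeR adjusted p = 4.39e-15). With siSCR in LNCaP:C4-2 it was 1310, 1280 and 1350 CPM with vehicle and 871, 926 and 912 with R1881. All R1881 libraries were lower, but the log2 fold change of -0.54 ± 0.0966 (edgeR adjusted p = 0.000756) was under the fold threshold. With library size alone as the scaling it was -0.655 (edgeR adjusted p = 0.000106) and passed. With siMETTL3 it was 1540, 1210 and 1180 CPM with vehicle and 810, 741 and 764 with R1881, a log2 fold change of -0.77 ± 0.0969 (edgeR adjusted p = 3.82e-05). FOLH1B is a close copy of FOLH1 on chromosome 11, and reads that fit both could not be assigned, so its values are uncertain. In 22Rv1 with siSCR, FOLH1B had 23, 14 and 38 counts with vehicle and 3 in each R1881 library, a log2 fold change of -2.99 ± 0.5 (edgeR adjusted p = 8.11e-05).

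PSCA was measured at usable depth in LNCaP:C4-2 alone, and TRPM8 only there with R1881. Both rose in that line, TRPM8 from a vehicle level of few counts. PSCA with siSCR had 78, 87 and 78 counts with vehicle and 237, 198 and 234 with R1881. The groups did not overlap, with a log2 fold change of 1.53 ± 0.126 (SE, edgeR adjusted p = 2.92e-07). With siMETTL3 it had 108, 114 and 113 counts with vehicle and 409, 367 and 385 with R1881, a log2 fold change of 1.78 ± 0.121 (edgeR adjusted p = 3.97e-08). The gene overlaps JRK on the minus strand, and the counting command set no strand, so reads from the overlap cannot be told apart. JRK was at 32.9 ± 1.90 CPM with vehicle and 23.2 ± 1.53 with R1881 in LNCaP:C4-2 with siSCR. TRPM8 had 10, 6 and 7 counts with siSCR and vehicle and 256, 328 and 289 with R1881. Its log2 fold change of 5.30 ± 0.302 (edgeR adjusted p = 4.24e-09) was the highest of the 8 genes that could be given as a fitted value. With siMETTL3 it rose from 5, 4 and 6 counts to 142, 118 and 210, a log2 fold change of 4.93 ± 0.335 (edgeR adjusted p = 4.17e-08). In 22Rv1 no library held more than 4 counts of either gene, under either treatment and siRNA, and no fold for R1881 was formed.

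CD276, the checkpoint ligand, was called in none of the 4 comparisons of R1881 with vehicle. With siSCR in LNCaP:C4-2 it was at 156, 145 and 149 CPM with vehicle and 128, 107 and 110 with R1881, without overlap. The log2 fold change of -0.38 ± 0.0986 (SE, edgeR adjusted p = 0.0103) was under the fold threshold, as was -0.30 ± 0.0984 with siMETTL3 (edgeR adjusted p = 0.0489). In 22Rv1 with siSCR it was at 68.6, 64.1 and 57.2 CPM with vehicle and 66.9, 63.8 and 64.9 with R1881. These groups overlapped, with a log2 fold change of 0.04 (95% interval -0.12 to 0.21, edgeR adjusted p = 0.717). With siMETTL3 in 22Rv1 the interval ran from -0.18 to 0.15.

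**Figure D2:**
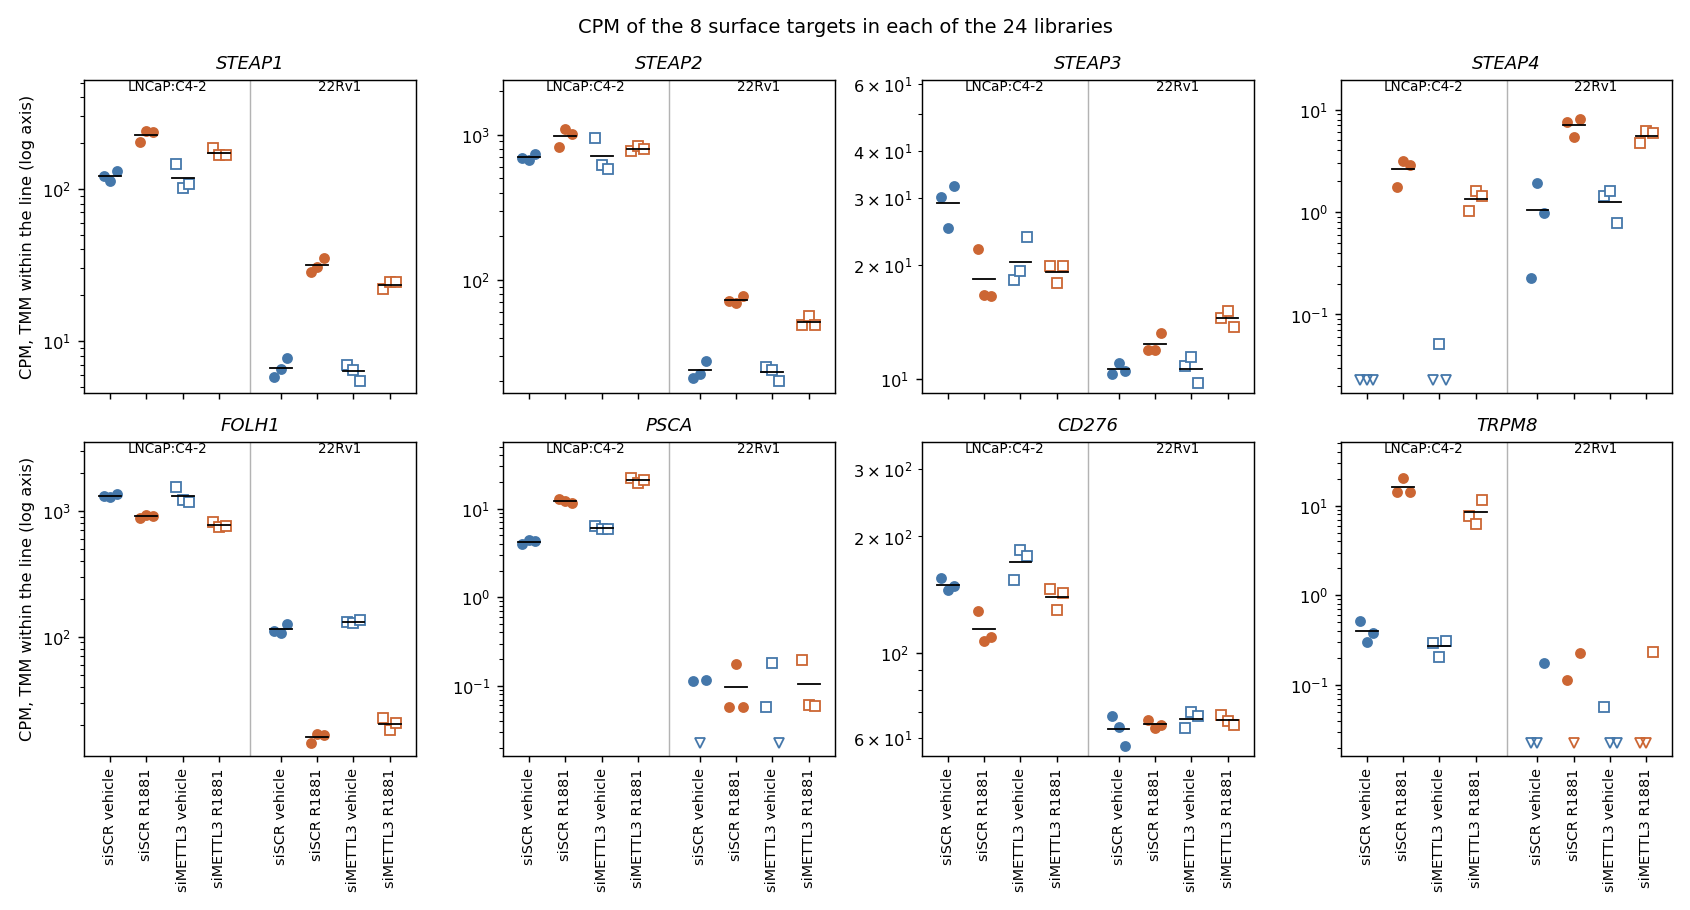
CPM (log axis, TMM within the line) of each gene in the 24 libraries, LNCaP:C4-2 left and 22Rv1 right of the grey line. Blue is vehicle, orange R1881, filled circles siSCR, open squares siMETTL3, black bars the mean of 3 libraries, and open triangles libraries without a count. STEAP1 rose with R1881 in both lines, while FOLH1 in 22Rv1 with siSCR went from 107 or more CPM to 16.8 or less.

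**Figure D3:**
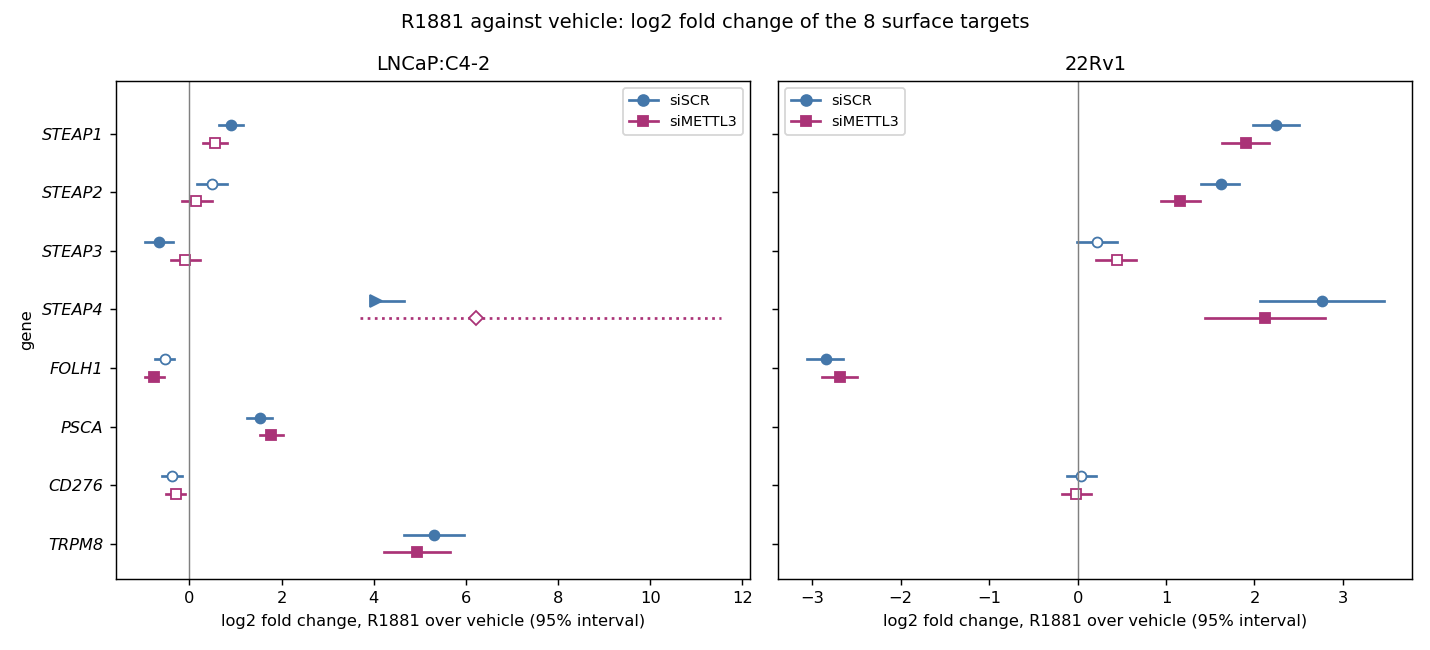
Log2 fold change of R1881 over vehicle with its 95% interval, in siSCR (blue circles) and siMETTL3 (purple squares), with a separate horizontal scale per line. Filled symbols were called. For STEAP4 in LNCaP:C4-2 the triangle is the lower bound of 4.06 and the diamond with a dotted line is the ratio of 74.7 with its counting interval, drawn on the log2 scale. FOLH1 in 22Rv1 stood at -2.85 and -2.69.

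Genes with well-known androgen responses served as a reference for the lines' responses. FKBP5, an androgen-induced gene encoding a cochaperone, rose by a log2 fold change of 3.49 ± 0.0992 in LNCaP:C4-2 and 3.33 ± 0.0669 in 22Rv1 (SE, siSCR, edgeR adjusted p = 1.34e-12 and 2.26e-19). KLK3, which encodes PSA, rose by 4.08 ± 0.135 in LNCaP:C4-2 (edgeR adjusted p = 9.19e-12) and was at -0.01 ± 0.157 in 22Rv1 (edgeR adjusted p = 0.954). TMPRSS2, a serine protease gene, rose by 4.26 ± 0.230 in LNCaP:C4-2 (edgeR adjusted p = 2.46e-09) and was at -0.40 ± 0.185 in 22Rv1 (edgeR adjusted p = 0.1). STEAP1, STEAP2 and STEAP4 thus had called responses in 22Rv1, a line in which KLK3 and TMPRSS2 did not.

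The responses of both lines were then compared within a single model of all 24 libraries. With siSCR the R1881 response differed between lines for 6 of the 8 genes, where 16.8% of 19437 genes tested differed at an adjusted p under 0.05. The response of STEAP1 was more positive in 22Rv1 by 1.33 ± 0.181 on the log2 scale (SE, edgeR adjusted p = 5.54e-06). That of STEAP2 was more positive by 1.13 ± 0.195 (edgeR adjusted p = 0.000146) and that of STEAP3 by 0.88 ± 0.181 (edgeR adjusted p = 0.00101). For FOLH1 it was more negative in 22Rv1, with a difference of -2.32 ± 0.138 (edgeR adjusted p = 2.01e-12). For STEAP4 the fitted difference has no usable size because LNCaP:C4-2 vehicle libraries were at 0 (edgeR adjusted p = 0.00643), and no size is given. For CD276 the difference was 0.42 ± 0.122 (edgeR adjusted p = 0.0175). It lost the call when any of 6 of the 12 siSCR libraries was left out: LNCaP:C4-2 vehicle replicate 1, LNCaP:C4-2 R1881 replicates 2 and 3, 22Rv1 vehicle replicate 3, and 22Rv1 R1881 replicates 1 and 3. It was then between 0.29 and 0.38, at edgeR adjusted p of 0.0621 to 0.115. PSCA and TRPM8 did not pass (edgeR adjusted p = 0.47 and 0.0876), with at most 4 counts per library in 22Rv1. TRPM8 passed with DESeq2 (adjusted p = 0.00148) and with edgeR without the filter on low counts (adjusted p = 0.027).

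Between the lines themselves, 7 of the 8 genes were lower in 22Rv1 and STEAP4 was higher. All 8 were called with vehicle, where 59.2% of 19437 genes were, and all 8 with R1881, where 60.1% were. PSCA and TRPM8 passed the count filter only through LNCaP:C4-2 libraries, and TRPM8 only through those with R1881. Their calls are therefore not independent of the filter. Requiring at least 10 counts in every library left 5 called in each comparison, against 50.6% of genes with vehicle and 52.7% with R1881. FOLH1 was lower in 22Rv1 by a log2 fold change of -3.70 ± 0.103 with vehicle and -6.02 ± 0.118 with R1881 (SE, edgeR adjusted p = 2.9e-21 and 3.44e-24). STEAP2 was lower by -5.06 ± 0.161 with vehicle and -3.93 ± 0.15 with R1881 (edgeR adjusted p = 4.44e-20 and 2.08e-18). STEAP1 was lower by -4.38 ± 0.143 with vehicle and -3.05 ± 0.126 with R1881 (edgeR adjusted p = 7.62e-20 and 1.15e-17). STEAP1 and STEAP2 were thus closer between lines with R1881, and FOLH1 further apart. STEAP3 differed by -1.65 ± 0.128 with vehicle and -0.77 ± 0.128 with R1881 (edgeR adjusted p = 7.8e-12 and 6.12e-06), and CD276 by -1.44 ± 0.0878 and -1.02 ± 0.0874 (edgeR adjusted p = 5.41e-14 and 5.96e-11). With library size alone as the scaling the STEAP3 value with R1881 was -0.56, under the fold threshold. PSCA summed to 243 counts over the 3 LNCaP:C4-2 vehicle libraries and 4 over those of 22Rv1, a ratio of 55.3 (exact 95% counting interval 21.3 to 205), which ran from 37 to 74.2 when a library was left out. With R1881 the PSCA ratio was 126 (53.7 to 389) and that of TRPM8 137 (62.7 to 375). Without 22Rv1 R1881 replicate 2 the PSCA ratio was 212, and without replicate 3 that of TRPM8 was 273. The lowest were 104 for PSCA, without 22Rv1 R1881 replicate 1 or 3, and 92.3 for TRPM8, without replicate 2. TRPM8 with vehicle summed to 23 and 3 counts, a ratio of 6.98 (2.11 to 36.3). All 3 of the 22Rv1 counts lay in vehicle replicate 3, without which TRPM8 was at least 2.34-fold higher in LNCaP:C4-2 against the floor, and the ratio was 4.62 without vehicle replicate 1 and 4.67 without vehicle replicate 2. STEAP4 with vehicle was at least 6.63-fold higher in 22Rv1 against the floor of 3 counts per library, and at least 3.87-fold higher without 22Rv1 vehicle replicate 2. With R1881 it differed by 1.24 ± 0.319 on the log2 scale (edgeR adjusted p = 0.00126).

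The next comparison asked what METTL3 depletion did to these genes without androgen. None of the 8 was called with vehicle in LNCaP:C4-2, where 1.2% of genes were. Of the 8, 2 (STEAP3 and PSCA) were under an unadjusted p of 0.05, as were 2636 of the 16435 genes tested. None of the 6 tested was called with vehicle in 22Rv1, where 0.202% of genes were. Of the 6, 1 (FOLH1) was under an unadjusted p of 0.05, as were 2604 of the 17865 genes tested. DESeq2 also called 0 in each, where it called 349 (1.01%) of all genes with a count in LNCaP:C4-2 and 39 (0.104%) in 22Rv1. STEAP3 in LNCaP:C4-2 had a log2 fold change of -0.51 ± 0.143 (SE, edgeR adjusted p = 0.0899), with its 3 siMETTL3 libraries below its 3 siSCR libraries. PSCA in LNCaP:C4-2 had 0.52 ± 0.131 (edgeR adjusted p = 0.0633), with its 3 siMETTL3 libraries above. Of the genes with the most counts in LNCaP:C4-2, FOLH1 lay at 0.00 (95% interval -0.20 to 0.21), STEAP2 at 0.04 (-0.28 to 0.37) and STEAP1 at -0.04 (-0.31 to 0.22).

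With R1881 present, PSCA was higher and TRPM8 lower with siMETTL3 than with siSCR in LNCaP:C4-2. These were 2 of 8 called, against 0.7% of genes. METTL3 itself was not called in this comparison. Its log2 fold change of -0.57 ± 0.107 (SE, edgeR adjusted p = 0.0256) was under the fold threshold. PSCA was at 13, 12.1 and 11.5 CPM with siSCR and 22.1, 19.6 and 21 with siMETTL3. Its log2 fold change was 0.78 ± 0.114 (SE, edgeR adjusted p = 0.0108), with no overlap between groups. It ceased to be called without siSCR R1881 replicate 2 (0.76, adjusted p = 0.0884), without siSCR R1881 replicate 3 (0.73, adjusted p = 0.0586) or without siMETTL3 R1881 replicate 1 (0.72, adjusted p = 0.0921). TRPM8 was at 14, 20.1 and 14.2 CPM with siSCR and 7.68, 6.29 and 11.4 with siMETTL3, again without overlap. Its log2 fold change was -0.92 ± 0.207 (edgeR adjusted p = 0.049), close to the threshold. It ceased to be called without siSCR R1881 replicate 2 (-0.75, adjusted p = 0.263) or 3 (-1.01, adjusted p = 0.121), and without siMETTL3 R1881 replicate 1 (-0.87, adjusted p = 0.209) or 2 (-0.76, adjusted p = 0.159). STEAP4 with R1881 had a log2 fold change of -0.95 ± 0.333 (edgeR adjusted p = 0.103), with 32, 52 and 59 counts in siSCR and 19, 30 and 26 in siMETTL3. Without siSCR R1881 replicate 1 it was -1.18 (edgeR adjusted p = 0.0316). Over all libraries left out in turn it ran from -1.18 to -0.80, at edgeR adjusted p of 0.0316 to 0.34. STEAP1 was at -0.39 ± 0.124 (edgeR adjusted p = 0.0818), STEAP2 at -0.28 ± 0.152 (edgeR adjusted p = 0.225), FOLH1 at -0.23 ± 0.0964 (edgeR adjusted p = 0.146) and CD276 at 0.28 ± 0.0987 (edgeR adjusted p = 0.101).

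In 22Rv1 with R1881, none of the 6 tested genes met both criteria, against 3.29% of genes. DESeq2 likewise called 0, where it called 494 (1.32%) of all genes with a count. Of the 6, 3 (STEAP1, STEAP2 and FOLH1) were under an unadjusted p of 0.05, as were 5712 of the 17865 genes tested. These 3 also passed the adjusted p, as did 16.2% of all genes, but not the fold. STEAP2 was at 72, 69.6 and 77.7 CPM with siSCR and 49.1, 56.8 and 49 with siMETTL3. Its log2 fold change was -0.50 ± 0.0994 (SE, edgeR adjusted p = 0.00332), and the groups did not overlap. STEAP1 was at 28.6, 30.7 and 35.1 CPM with siSCR and 21.8, 24.3 and 24.4 with siMETTL3, a log2 fold change of -0.42 ± 0.111 (edgeR adjusted p = 0.0152). FOLH1, the gene that R1881 lowered, was at 14.3, 16.8 and 16.6 CPM with siSCR and 22.6, 18 and 20.5 with siMETTL3, a log2 fold change of 0.36 ± 0.103 (edgeR adjusted p = 0.0241).

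**Figure D4:**
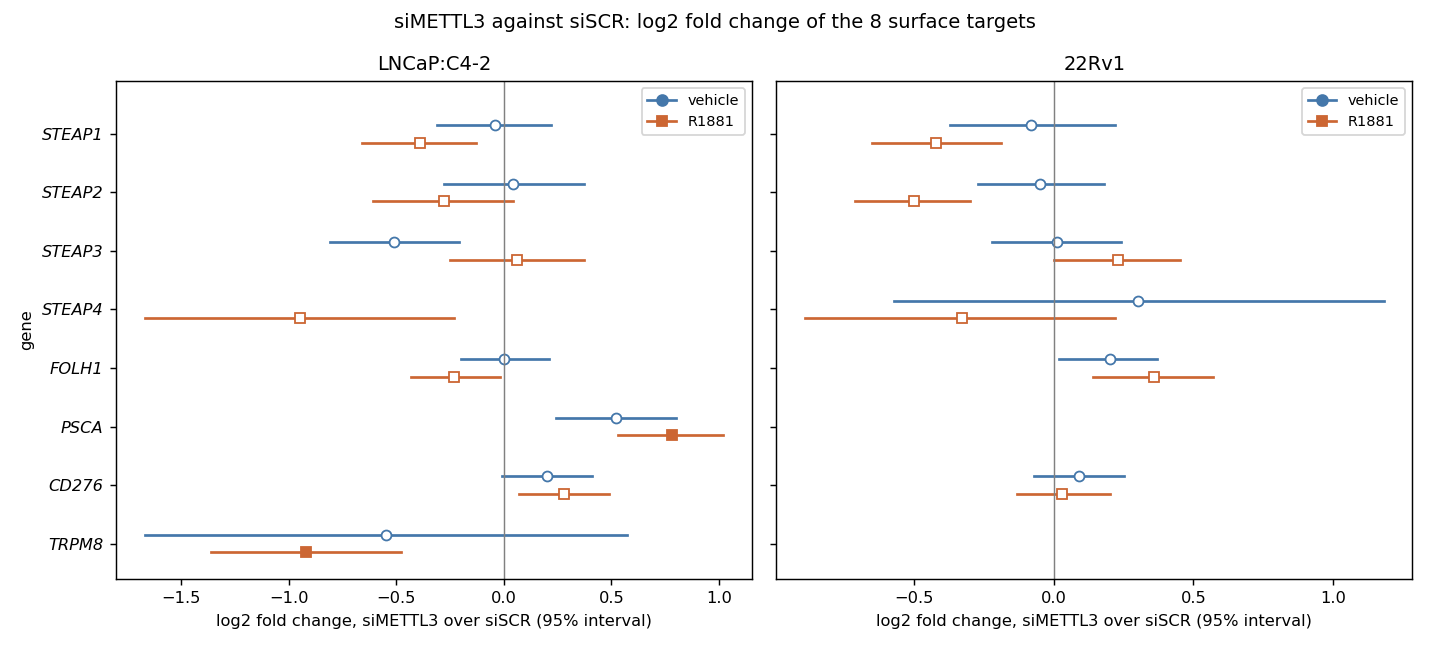
Log2 fold change of siMETTL3 over siSCR with its 95% interval, with vehicle (blue circles) and with R1881 (orange squares), with a separate horizontal scale per line. Filled symbols were called: PSCA at 0.78 and TRPM8 at -0.92, both in LNCaP:C4-2 with R1881. STEAP4 in LNCaP:C4-2 with vehicle and PSCA and TRPM8 in 22Rv1 are not drawn for want of counts.

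Whether depletion altered the R1881 response itself was tested as an interaction. In LNCaP:C4-2 none of the 8 passed, nor did any of the 16435 genes (0%). The unadjusted p was under 0.05 for 2037 genes, 1 of the 8 (STEAP3) among them, and DESeq2 called 50 genes but 0 of the 8. STEAP3 had an interaction of 0.57 ± 0.204 on the log2 scale (SE, edgeR adjusted p = 0.358). In 22Rv1 none of the 6 passed, against 0.0168% of genes. The unadjusted p was under 0.05 for 1101 of 17865 genes, 1 of the 6 (STEAP2) among them. DESeq2 called 0 of the 6, and 8 (0.0213%) of all genes with a count. STEAP2 had an interaction of -0.46 ± 0.147 (edgeR adjusted p = 0.802). For STEAP1 the interaction was -0.35 (95% interval -0.72 to 0.03) in LNCaP:C4-2 and -0.34 (-0.72 to 0.03) in 22Rv1. Every STEAP1 and STEAP2 R1881 response was nominally smaller with siMETTL3 than with siSCR, and none of these 4 differences passed. In LNCaP:C4-2 the STEAP2 interaction was -0.33, and without siMETTL3 vehicle replicate 1, the library that stood apart, it was -0.08 and that of STEAP1 -0.18.

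The depletion effect was also compared between lines. None of the 8 genes differed with vehicle, where 0.458% of genes did, or with R1881, where 0.0926% did. With vehicle 1 of the 8 (STEAP3) was under an unadjusted p of 0.05, as were 2240 of the 19437 genes tested. With R1881 it was 1 of the 8 (FOLH1), and 1469 of the 19437 genes. DESeq2 called 0 with vehicle and 1 (FOLH1, adjusted p = 0.0177) with R1881, where it called 313 (0.767%) and 109 (0.267%) of all genes with a count. For FOLH1 with R1881 the effect was more positive in 22Rv1 by 0.60 ± 0.142 on the log2 scale (SE, edgeR adjusted p = 0.116), with -0.23 in LNCaP:C4-2 and 0.36 in 22Rv1.

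Around the STEAP cluster on chromosome 7, CLDN12 and CFAP69 were called with R1881 in both lines. With siSCR, CLDN12, a claudin gene that starts 229.3 kb from STEAP1, rose by a log2 fold change of 1.37 ± 0.152 in LNCaP:C4-2 and 0.92 ± 0.0905 in 22Rv1 (SE, edgeR adjusted p = 7.49e-06 and 5.69e-08). CFAP69, a cilia- and flagella-associated gene 90.8 kb away, rose by 1.20 ± 0.184 and 1.02 ± 0.191 (edgeR adjusted p = 0.000201 and 0.000269). GTPBP10, which lies between them, was at 0.17 ± 0.137 and 0.31 ± 0.0917 (edgeR adjusted p = 0.403 and 0.0126), under the fold threshold in both lines. In LNCaP:C4-2 CLDN12 and CFAP69 thus had larger fitted values than STEAP1 at 0.90, and in 22Rv1 smaller ones than STEAP1 at 2.24. The difference between genes was not tested. Over the 177 genes within 500 kb of any of the 8, 43 were tested in LNCaP:C4-2 with siSCR and 5 rose and 1 fell, 14% against 15.1% of all genes (median log2 fold change 0.10, against -0.0277). In 22Rv1 41 were tested, and 8 rose and 5 fell, 31.7% against 13.8% of all genes (median -0.01, against 0.00206). STEAP2-AS1, which overlaps STEAP1 and STEAP2 on the other strand, had 91 counts over all 24 libraries, and STEAP3-AS1 had 65. STEAP1B, a close copy of STEAP1 on chromosome 7, had at most 16 counts in any library.

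**Figure D5:**
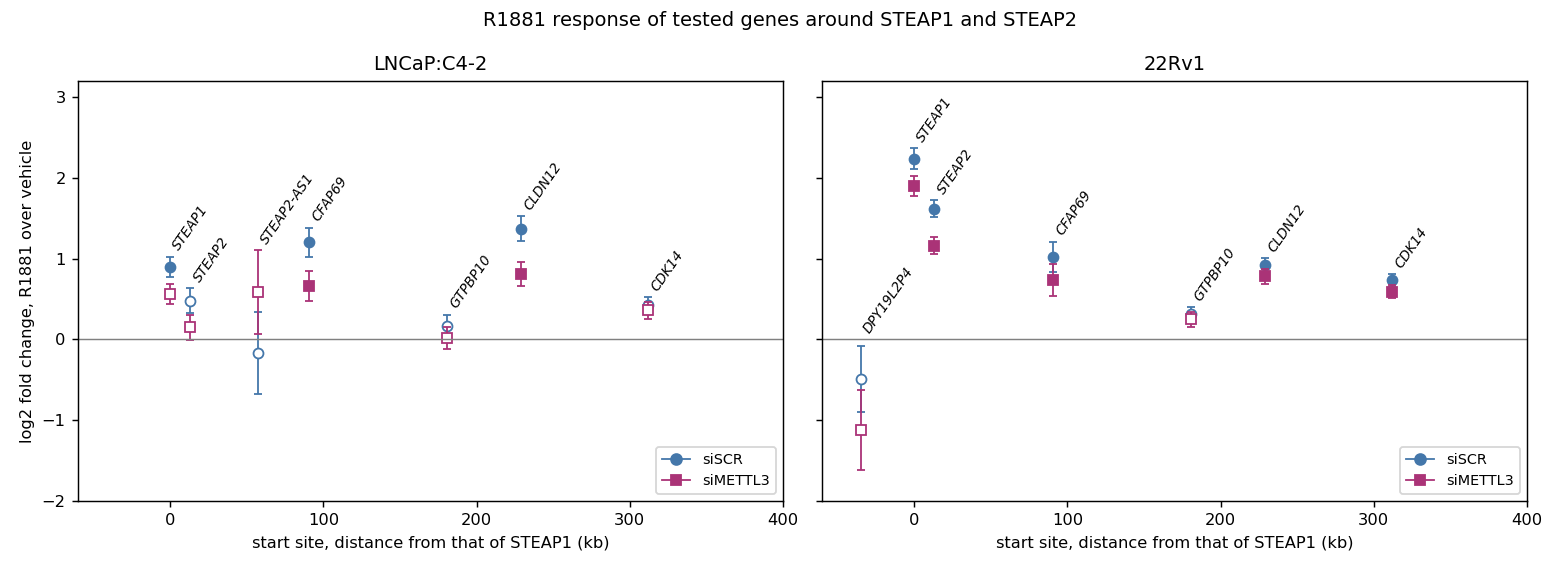
Log2 fold change of R1881 over vehicle, with SE bars, of the named tested genes around STEAP1 and STEAP2, by the distance of their start from that of STEAP1 in kb, in siSCR (blue circles) and siMETTL3 (purple squares). Filled symbols were called. CFAP69 and CLDN12 were called in both lines with siSCR, and GTPBP10 in neither.

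Lists of related genes gave the setting of these responses. Of 27 iron and copper handling genes, the substrates' side of STEAP metalloreduction, 23 were tested in LNCaP:C4-2 with siSCR and 1 rose with R1881: the mitochondrial iron importer gene SLC25A37 (0.62 ± 0.110, edgeR adjusted p = 0.000647). This was 4.35% of the list, against 15.1% of all genes, and the median was 0.09. In 22Rv1 24 were tested, and 4 rose and 2 fell (25%, against 13.8%, median 0.16). Among them were the iron exporter ferroportin gene SLC40A1 (-1.42 ± 0.110), the transferrin receptor 2 gene TFR2 (-0.96 ± 0.121) and the ferritin heavy chain gene FTH1 (0.91 ± 0.142), at edgeR adjusted p of 1.19e-09, 2.46e-06 and 3.91e-05. With siMETTL3 the counts were 1 higher and 0 lower in LNCaP:C4-2 (4.35%, against 10.6% of all genes), and 2 higher and 2 lower in 22Rv1 (16.7%, against 13.5%).

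Of 25 other surface antigens, 21 were tested in each line. In LNCaP:C4-2 with siSCR 7 rose with R1881 and 0 fell (33.3%, against 15.1% of all genes, median 0.43), led by the prostein gene SLC45A3 (5.29 ± 0.148), the bombesin receptor gene GRPR (1.89 ± 0.651) and TMEFF2 (1.63 ± 0.399), at edgeR adjusted p of 1.34e-12, 0.0453 and 0.0072. In 22Rv1 3 rose and 5 fell (38.1%, against 13.8%, median -0.22), led by the tissue factor gene F3 (3.35 ± 0.199), the mucin gene MUC1 (-1.92 ± 0.409) and the adhesion gene ALCAM (1.62 ± 0.0924), at edgeR adjusted p of 1.67e-11, 0.000985 and 8.41e-12. MUC1 moved in opposite directions, since it rose by 1.34 ± 0.210 in LNCaP:C4-2 (edgeR adjusted p = 0.00024).

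The lists of relatives of single members were short, and their shares called are read against 15.1% of all genes in LNCaP:C4-2 and 13.8% in 22Rv1. Of 9 other B7 family genes, 4 were tested in LNCaP:C4-2 and 0 were called with R1881 and siSCR. In 22Rv1 3 were tested and 2 fell (66.7%), VTCN1 (B7-H4, -3.36) and HHLA2 (-2.07), at edgeR adjusted p of 0.000824 and 0.000322. Of 23 other TRP channel genes, 11 were tested in LNCaP:C4-2 with siSCR and 18.2% called: the calcium channel gene TRPV5 rose (2.40) and TRPV1 fell (-0.74), at edgeR adjusted p of 0.00477 and 0.0148. In 22Rv1 14 were tested and 14.3% called: TRPV2 rose (0.64) and TRPA1 fell (-4.45), at edgeR adjusted p of 0.0224 and 0.000988. Of 16 folate and NAALADase genes, related to the enzyme activity of FOLH1, 13 were tested in each line. In LNCaP:C4-2 1 rose and 1 fell (15.4%), the latter the thymidylate synthase gene TYMS (-0.72, edgeR adjusted p = 0.000985), and 0 were called in 22Rv1. With siMETTL3 against siSCR and R1881 present, NAALADL2 fell in LNCaP:C4-2 (-0.95, edgeR adjusted p = 0.0137), 7.69% of the list against 0.7% of all genes.

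The patterns most like those of the members were sought among 15337 genes as Pearson correlations of log2 CPM, which are descriptions, since the points share line and treatment. Over the 8 condition means STEAP1 was most like EMP2 and HOMER1 (r = 0.997 for each) and STEAP2 most like CDK8 and IWS1 (r = 0.998 for each). FOLH1 was most like PIGT (r = 0.998) and CMBL (r = 0.997), CD276 most like NOTCH1 (r = 0.998) and ITPKA (r = 0.997), STEAP3 most like RANBP1 (r = 0.995) and NABP1 (r = 0.994), and STEAP4 most like TMCC3 (r = 0.991) and AKAP12 (r = 0.990). Within the 12 LNCaP:C4-2 libraries STEAP1 was most like DCAF6 (r = 0.993) and FOLH1 most like LIN7A (r = 0.992). Between STEAP1 and STEAP2 r was 0.984 over the 8 means, 0.871 over the 12 LNCaP:C4-2 libraries and 0.991 over the 12 libraries of 22Rv1. In that order, 62, 705 and 12 genes were more like STEAP1 than STEAP2 was. Over the LNCaP:C4-2 libraries STEAP4 was among them, at r = 0.906.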

How the data were processed

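Gene counts of 24 RNA-seq libraries were used. The authors trimmed reads with Trim Galore (Cutadapt, FastQC), aligned them to GRCh38 with STAR and deposited raw counts per gene and library, made with featureCounts 1.5.0-p1 on Ensembl 83. Per the file headers no strand setting was given. Groups came from the sample labels. Genes were tested with edgeR 4.0.16 (quasi-likelihood, TMM scaling, R 4.3.3) after a filter (count minimum 10, total 15), over the 12 libraries of a line, or over all 24 for differences between lines, with Benjamini-Hochberg adjustment over all genes tested. Genes were called at an adjusted p under 0.05 and, except for interactions and differences of effects, a fold of at least 1.5. DESeq2 1.42.0, other scalings, filters, a replicate block and leaving out each library were alternatives. Comparisons within a line share groups. The 8 genes and the gene lists were chosen with earlier results of these data known. Described by value were all 8 genes, and of each list at most 3 called genes with the largest change in a comparison. Some called list genes and 1 luminal marker are not reported here.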

Additional observations from a re-analysis of the deposited data

Results flagged for a closer look

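These results stood out because the R1881 response with siSCR differed between lines in a direct test over all 24 libraries. On the log2 scale the response of 22Rv1 minus that of LNCaP:C4-2 was 1.33 for STEAP1, 1.13 for STEAP2 and 0.88 for STEAP3. It was -2.32 for FOLH1 and 0.42 for CD276. For STEAP4, with no vehicle count in LNCaP:C4-2, the difference passed (edgeR adjusted p = 0.00643) but has no usable size. STEAP3 had a fitted response of -0.66 in LNCaP:C4-2 and 0.22 in 22Rv1, and the second of these did not pass its own test.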

How the results depend on the processing

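Of 1267 values of 91 single-gene results under the alternatives, 1213 kept their direction and side of the threshold, 22 lost a call, 9 gained one and 23 changed sign. With no fold threshold, 8 genes were called for R1881 in LNCaP:C4-2 with siSCR, against 24.8% of all genes. For siMETTL3 with R1881 in 22Rv1 it was 3, against 16.2% of all genes. Requiring at least 10 counts in every library removed low genes from testing. In LNCaP:C4-2 this left 3 called for R1881 with siSCR (14.2% of all genes), 2 with siMETTL3 (9.78%) and 1 for siMETTL3 with R1881 (0.757%). It left 5 in each comparison between lines, against 50.6% of all genes with vehicle and 52.7% with R1881. For siMETTL3 with R1881 in LNCaP:C4-2, 1 gene was called with library size alone (0.621% of all genes) and 1 with the replicate block (0.237%). TRPM8 was lost in each (edgeR adjusted p = 0.0949 with the block). When a library was left out, 0 to 3 were called. For the siMETTL3 effect between lines with R1881, 1 gene (FOLH1) was called by DESeq2 and 1 without the filter, where 109 and 73 of all genes were. The cause was not tested.

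Sign changes were seen for values near 0 when libraries were left out, none of them called. In LNCaP:C4-2 the ranges were -0.173 to 0.0336 for STEAP3 (R1881, siMETTL3), -0.0177 to 0.198 for STEAP3 (siMETTL3, R1881), and, for siMETTL3 with vehicle, -0.219 to 0.0516 for STEAP1, -0.216 to 0.176 for STEAP2 and -0.129 to 0.0706 for FOLH1, which was -0.0309 with library size alone and -0.00408 with the replicate block. In 22Rv1 they were -0.0244 to 0.0991 for CD276 with R1881 and siSCR (-0.0193 with library size alone), -0.0519 to 0.0141 with siMETTL3, and, for siMETTL3 with vehicle, -0.168 to 0.0434 for STEAP1, -0.118 to 0.076 for STEAP2, -0.0453 to 0.0715 for STEAP3 and -0.173 to 1.08 for STEAP4.

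Same-numbered libraries did not deviate together: over 18 pairs per line the correlations ran from -0.337 to 0.195 in LNCaP:C4-2 and -0.228 to 0.152 in 22Rv1, so the numbers were not taken to pair samples. PSCA and TRPM8 held at most 4 counts in any 22Rv1 library and were not tested for R1881 within that line.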
